A study of Rattus norvegicus with 15 samples.

Results

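A set of 157 genes whose RNA was high in osteogenic medium was described in rat bone marrow mesenchymal stem cells. In adipogenic medium their averages, with 0.5 CPM added, stayed above 0.5 and under 2 times the untreated level. The genes were found among the 32883 rows with an Ensembl rat gene identifier in a table of 34480 rows. The levels that chose them were CPM (a gene's reads divided by all counted reads of the library, times 1000000), averaged over the 3 libraries of a group, with 0.5 CPM added to each average. A gene was taken when the ratio Ost over Control was at least 8, the ratio Adi over Control was above 0.5 and under 2, and the Ost average was at least 5 CPM. Another 3 identifiers were left out by name, of which 1 met these conditions.

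The study asked how aspirin acts on marrow stromal cells that are driven towards bone-forming cells or towards fat cells. There were 5 groups of 3 RNA sequencing libraries. Ost_ASA cells were kept in osteogenic differentiation medium with aspirin (acetylsalicylic acid, an inhibitor of the cyclooxygenase enzymes) and Ost cells in that medium without it. Adi_ASA cells were kept in adipogenic differentiation medium with aspirin and Adi cells in that medium without it. Control cells were untreated. All came from bone marrow of Sprague-Dawley rats, an outbred strain, and were grown to confluence at passage 3 to 6. The labels do not state the aspirin dose, what the media contained, the time in culture or the number of animals. A difference between a medium and Control may therefore include time in culture or batch, which cannot be told apart from the medium. If the replicates of a group were dishes of 1 culture, the p-values measure technical spread alone.

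As general background, marrow stromal cells are a shared source of bone-forming and fat-storing cells. Osteogenic media usually supply ascorbate, which collagen synthesis needs, and a phosphate donor, which mineral deposition needs, often with a glucocorticoid. Adipogenic media usually combine a glucocorticoid with insulin and agents that switch on the fat cell programme. The transcription factors Runx2 and Sp7 are known for the osteoblast programme, and Pparg for the adipocyte programme. Symbols could be matched to 0 rows of the deposited table, either from the table itself or from the rat gene reference used here. The 157 genes carry only their identifiers below, their roles and sequences are not described, and the cell type on the labels could not be checked against its markers.

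The libraries held 18373289 to 22817858 counted reads. Together the 157 genes took 4.99% to 5.08% of all reads in the Ost_ASA libraries and 4.96% to 5.06% in the Ost libraries. The corresponding shares were 0.391% to 0.407% in Adi_ASA, 0.372% to 0.42% in Adi and 0.314% to 0.332% in Control. The ranges of Ost_ASA and Ost overlapped, as did those of Adi_ASA and Adi, and both osteogenic groups lay above the other libraries. For Ost against Adi and Control, the choice of the genes fixed this order in advance. In bulk RNA, more cells with a transcript and more of it per cell cannot be told apart.

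Expression within the set was uneven. The median gene averaged 59.5 CPM in Ost_ASA, 48.5 CPM in Ost, 1.91 CPM in Adi_ASA, 1.42 CPM in Adi and 1.31 CPM in Control. The 3 most abundant genes held 43.7% of the set's reads in Ost. ENSRNOG00000017510, the most abundant, alone took 1.12% of all reads there. It had 12405, 11899 and 13480 CPM in the Ost_ASA libraries and 10850, 11576 and 11200 CPM in the Ost libraries. In the other groups it ranged from 615 to 632 CPM in Adi_ASA, 564 to 615 CPM in Adi and 514 to 542 CPM in Control. Its Ost_ASA libraries were all above its Ost libraries, but the difference did not pass the test (log2 fold change 0.19, SE 0.07, edgeR adjusted p = 0.132). Under DESeq2 the same difference passed (log2 fold change 0.19, adjusted p = 0.0201). ENSRNOG00000058039, the next in abundance, averaged 5405 ± 479 CPM in Ost_ASA and 5498 ± 289 CPM in Ost, against 622 ± 74.5 in Adi_ASA, 795 ± 112 in Adi and 477 ± 50.6 CPM in Control (SD, n = 3 each). Its Ost_ASA and Ost libraries overlapped.

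**Figure D1:**
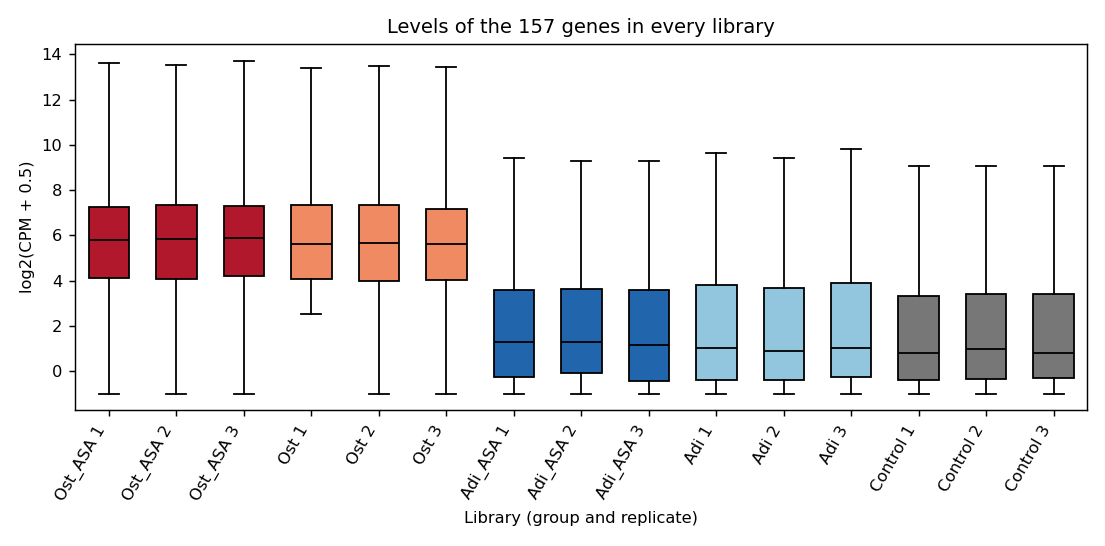
Levels of the 157 genes in each of the 15 libraries as log2(CPM + 0.5), where the box spans the middle of the genes, the line is the median and the whiskers reach the lowest and highest gene. The 6 osteogenic libraries sit apart from the other 9, with medians of 54.6 to 59.1 CPM in Ost_ASA and 48.0 to 49.7 CPM in Ost, against 1.22 to 1.96 CPM in the others. The choice of the genes fixed in advance that Ost lay above Adi and Control.

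The ratio of Ost over Control, which chose the genes, ran from 8.04 to 210.1 with a median of 16.3. It was under 16 for 78 genes, 16 to 32 for 53, 32 to 64 for 13 and 64 or more for 13. The ratio of Adi over Control, also part of the choice, had a median of 1.11 and was above 1 for 98 genes and below 1 for 57. The added 0.5 CPM narrows this ratio for genes with few reads. ENSRNOG00000057724 had 27 reads in Control and 1 in Adi at a ratio of 0.56. ENSRNOG00000002158 had 3 reads in Control and 31 in Adi at a ratio of 1.86. Every Ost library lay above every Control library for 156 of the 157 genes, against 34.2% of all genes tested, and a ratio of at least 8 was found for 1.61% of all genes tested. Since the choice fixed these values, nothing is read from them. Next to the limits, the 3 genes just inside had Ost over Control ratios of 8.039, 8.0489 and 8.0490, and the 3 just outside 7.978, 7.975 and 7.972. The lowest Adi over Control ratios inside were 0.513, 0.524 and 0.533, and the nearest outside 0.490, 0.486 and 0.471. The highest inside were 1.98, 1.96 and 1.94, and the nearest outside 2.01, 2.09 and 2.11. The lowest Ost averages inside were 5.18, 6.11 and 6.13 CPM, and the nearest outside 4.95, 4.80 and 4.48 CPM.

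The genes started from different levels in untreated cells. For 12 genes no read was counted in Control, for 62 the Control average was above 0 but under 1 CPM, for 44 it was 1 to 10 CPM and for 39 it was 10 CPM or more. The first of these classes had a median of 11.18 CPM in Ost_ASA and 12.999 CPM in Ost. The class under 1 CPM had 19.2 CPM in Ost_ASA and 16.3 CPM in Ost. The class of 1 to 10 CPM had 67.8 CPM in Ost_ASA and 63.96 CPM in Ost, and the class of 10 CPM or more had 473 and 475 CPM in the same groups. Genes that were more abundant in Control were also more abundant in Ost (Spearman correlation 0.83 across the 157 genes, which were chosen by the ratio of these levels).

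Replicates lay close together. The standard deviation over the 3 libraries was 6.44% of the mean in Ost_ASA and 5.62% in Ost for the median gene, beside 6.88% and 5.56% in the same groups over all Ensembl genes at 5 CPM or more. It was over 50% in either group for 3 genes. ENSRNOG00000061031 rests on a single library: all of its 2675 reads were in Ost replicate 1 (119 CPM), and the other 14 libraries had 0. It met the conditions through that library alone, and it was the gene of the set that failed the filter on low counts and was not tested. ENSRNOG00000055765 had 2.01, 2.44 and 7.20 CPM in Ost_ASA and 23.7, 5.39 and 3.05 CPM in Ost. It too was highest in Ost replicate 1, and its groups overlapped. ENSRNOG00000057522 had 3.47, 46.6 and 17.6 CPM in Ost_ASA and 17.8, 27.1 and 14.3 CPM in Ost, with the highest and the lowest value both in Ost_ASA. Across the set, Ost replicate 1 was the highest Ost library for 61 genes, replicate 2 for 59 and replicate 3 for 37.

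The aspirin-treated cultures had no part in the choice of the genes, so the same ratios were taken in them. Ost_ASA over Control was at least 8 for 147 of the 157 genes, against 1.69% of all genes tested, with a median ratio of 16.1. The Control libraries in this ratio also chose the genes. Of the 10 genes under 8, ENSRNOG00000061031 had a ratio of 1, since it had no reads, ENSRNOG00000055765 had 3.43, and the others lay closer to the limit. For 6 of the 10, the ratio of Ost over Control had been under 10. The Ost_ASA average was at least 5 CPM for 152 genes. Adi_ASA over Control lay between 0.5 and 2 for 147 genes, or 93.6%, which is near the 91.5% of all genes tested, and was 2 or more for 10, with a highest value of 3.60. All conditions of the choice, with Ost_ASA in place of Ost and Adi_ASA in place of Adi, were met by 136 genes, against 1.15% of all genes tested. The order of abundance was similar in Ost_ASA and Ost (Spearman correlation 0.97 across the 157 genes), and 11 of the 12 most abundant genes in Ost were also among the first 12 in Ost_ASA. Across the same genes the correlation between Adi and Control was 0.95, and the value over all genes was not taken.

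Osteogenic and adipogenic medium with aspirin in both, Ost_ASA and Adi_ASA, were then compared, since neither group had chosen the genes. Counts were tested with edgeR's quasi-likelihood model over all 15 libraries and 15543 genes, with Benjamini-Hochberg adjustment over all of them and a threshold of 0.05. All 156 genes tested were higher in Ost_ASA than in Adi_ASA and 0 were lower, against 32.8% higher and 32.9% lower among all genes tested (edgeR adjusted p of at most 0.0185). The filter on low counts ran over all 5 groups, so genes with few Adi_ASA reads could pass it through their osteogenic reads. Ost_ASA also shared its medium with Ost, whose libraries had chosen the genes. The share of all genes was not matched to genes high in that medium. The log2 fold change ran from 1.84 to 12.02 with a median of 4.23, beside -0.01 over all genes, and it was 3 or more, an at least 8-fold difference, for 131 genes. Every Ost_ASA library lay above every Adi_ASA library for 155 of the 157 genes, against 38.2% of all genes tested. The exceptions were ENSRNOG00000061031, with no reads in either group, and ENSRNOG00000057522, whose values of 3.47, 46.6 and 17.6 CPM in Ost_ASA overlapped 4.83, 4.06 and 2.29 CPM in Adi_ASA. Without 1 library of either group, 155 or 156 genes passed.

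**Figure D2:**
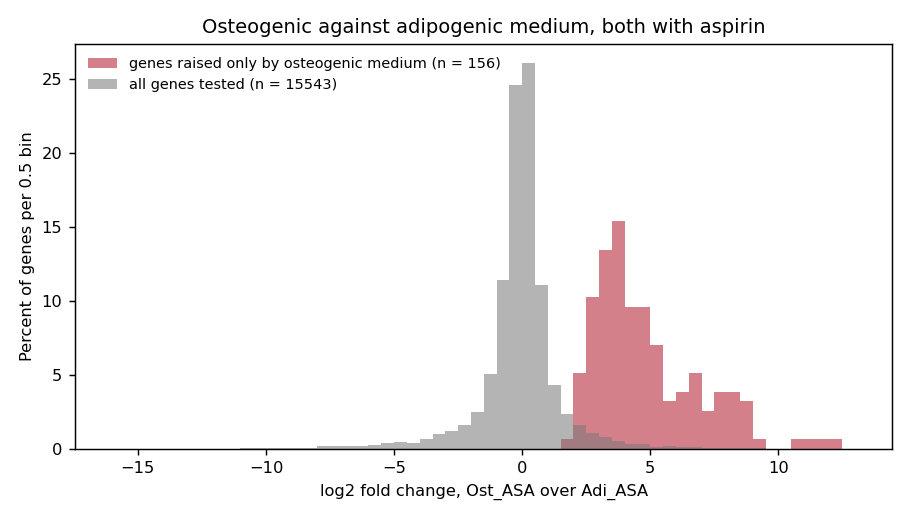
Distribution of the log2 fold change of Ost_ASA over Adi_ASA, in percent of genes per bin of 0.5, for the 156 genes tested and for all 15543 genes. The set lies at 1.84 to 12.02 with a median of 4.23, and the median of all genes is -0.01.

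The largest fitted differences belonged to genes with no reads in adipogenic cultures with aspirin. ENSRNOG00000016716 had 23.8, 26.5 and 26.0 CPM in Ost_ASA and 0 counts in every Adi_ASA library, which is at least 506-fold higher against a floor of 3 reads over the group (edgeR adjusted p = 9.03e-17). It had 29.5, 29.6 and 28.8 CPM in Ost, 1 read in Adi and 2 reads in Control. ENSRNOG00000021924 had 21.8, 15.9 and 16.4 CPM in Ost_ASA and 0 counts in every Adi_ASA library, at least 359-fold higher against the same floor (edgeR adjusted p = 2.17e-13). It had 12.997, 14.3 and 12.5 CPM in Ost and no read in any Adi or Control library. Both genes were read almost only in osteogenic cultures. Setting the 2 tested genes with no Adi_ASA reads to their bounds left the median log2 fold change of the set at 4.23, and 12 other genes had 1 to 3 reads in Adi_ASA.

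Aspirin in osteogenic medium moved some genes of the set in each direction. With aspirin, 19 of the 156 genes were called higher in Ost_ASA than in Ost and 8 were called lower (edgeR adjusted p under 0.05), while 129 did not pass. The background was 2.34% higher and 1.29% lower among all genes tested, and 2.84% higher and 1.7% lower among the 10349 genes with an Ost average of at least 5 CPM, set beside 12.2% and 5.13% of the set. The median log2 fold change of the set was 0.03, beside 0.003 over all genes, and 131 genes, or 84.0%, lay within 0.5 of 0, against 89.2% of all genes tested. The Ost libraries in this comparison had also chosen the genes, and whether that moved these counts was not tested. Every Ost_ASA library lay above every Ost library for 46 of the 157 genes, or 29.3%, against 9.11% of all genes tested and 9.13% of those at 5 CPM or more in Ost. The reverse held for 39 genes, or 24.8%, against 9.97% and 11.9%. DESeq2 called 30 genes higher and 16 lower, but the share of all genes called by DESeq2 was not taken.

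ENSRNOG00000033893 had 38.0, 39.3 and 47.8 CPM in Ost_ASA and 16.1, 18.3 and 20.6 CPM in Ost. The groups did not overlap (log2 fold change 1.21, SE 0.15, edgeR adjusted p = 0.000174). Its averages were 1.82 CPM in Adi_ASA, 1.70 CPM in Adi and 0.88 CPM in Control. ENSRNOG00000011381 had 102, 95.7 and 114 CPM in Ost_ASA and 49.0, 44.6 and 45.7 CPM in Ost, again with no overlap (log2 fold change 1.18, SE 0.10, edgeR adjusted p = 3.46e-06). It had no read in Control. These were the 2 genes of the set that rose at least 2-fold.

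ENSRNOG00000028108 had 3.38, 3.59 and 2.37 CPM in Ost_ASA and 7.23, 8.60 and 7.74 CPM in Ost (log2 fold change -1.32, SE 0.24, edgeR adjusted p = 0.00254). All Ost_ASA libraries were below all Ost libraries, and with 2 reads in Control the gene was still read mainly in osteogenic cultures. ENSRNOG00000022822 had 22.6, 23.9 and 24.1 CPM in Ost_ASA and 42.2, 35.5 and 38.2 CPM in Ost (log2 fold change -0.69, SE 0.10, edgeR adjusted p = 0.000325). It remained above the Control libraries, which had 2.31 to 3.11 CPM. These 4 calls held under all 12 alternatives run for each.

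**Figure D3:**
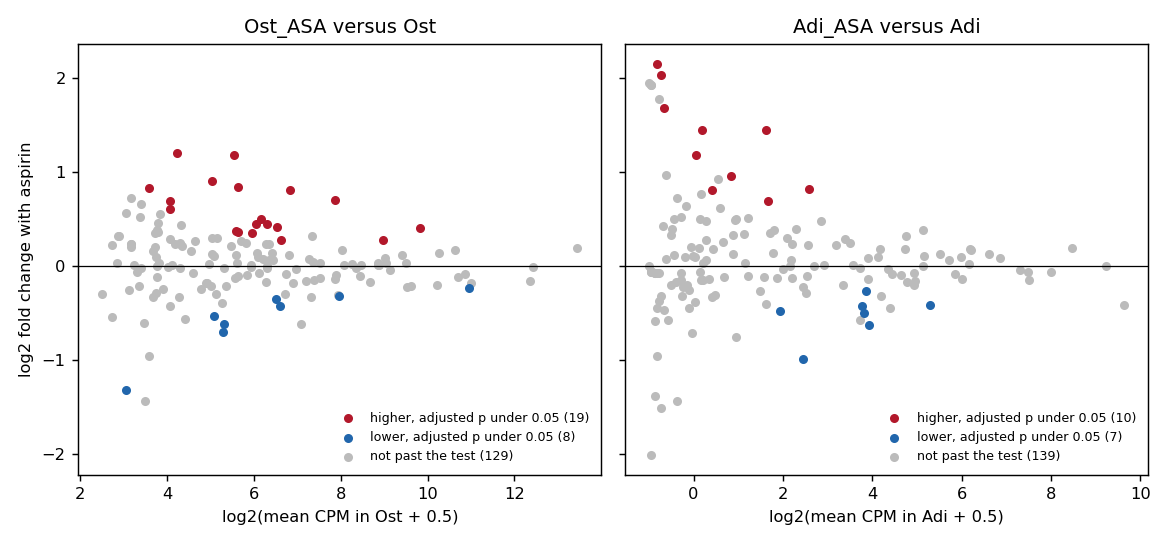
Log2 fold change with aspirin against log2(mean CPM + 0.5) without aspirin for the 156 genes tested, in osteogenic medium (left) and adipogenic medium (right). In osteogenic medium 19 genes were called higher and 8 lower, and in adipogenic medium 10 higher and 7 lower.

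The aspirin calls in osteogenic medium came from all levels. Among genes with no Control reads, 2 of 11 tested passed, both higher. Among those above 0 but under 1 CPM in Control, 7 rose and 1 fell of 62. Among those at 1 to 10 CPM, 7 rose and 5 fell of 44, and at 10 CPM or more 3 rose and 2 fell of 39. The medians of the log2 fold change in these classes were -0.06, 0.10, 0.09 and -0.02. As a setting for these counts, 55 genes met the Ost conditions but were also at least 2-fold up in Adi. With aspirin in osteogenic medium 9 of them rose and 2 fell, or 16.4% and 3.64%. Another 15 genes, at most 0.5 of Control in Adi, had 4 rises and 1 fall, or 26.7% and 6.67%. The shares were 12.2% and 5.13% in the set of 157, and 2.34% and 1.29% among all genes tested. Whether the sets differ was not tested.

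In adipogenic medium the genes were low, and aspirin was compared there between Adi_ASA and Adi. Of the 156 genes, 10 rose and 7 fell with aspirin (edgeR adjusted p under 0.05), which is 6.41% and 4.49% of the set. The background was 2.49% and 1.85% among all genes tested, and 3.12% and 2.36% among those at 5 CPM or more in Ost. The filter on low counts ran over all 5 groups, so low genes of the set could pass it through their osteogenic reads. Averages were under 1 CPM for 71 of the 157 genes in Adi and for 65 in Adi_ASA. Of the rises, 4 were among genes above 0 but under 1 CPM in Control and 1 among those with no Control reads. Every Adi_ASA library lay above every Adi library for 33 of the 157 genes, or 21.0%, which is near the 19.7% of all genes tested. The reverse held for 13, or 8.28%, which is near 6.23%. The median log2 fold change was 0.003, beside 0.002 over all genes. Scaled by library totals alone, 17 genes rose and 5 fell, but the share of all genes under that scaling was not taken. The count of rises was 6 without Adi replicate 2 and 6 without Adi_ASA replicate 3, and the count of falls was 4 without Adi replicate 3. The Adi libraries had also entered the choice of the genes.

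The largest rises concerned genes with few reads in adipogenic cultures. ENSRNOG00000011381 and ENSRNOG00000049695 failed the filter on low counts in a fit of the Adi_ASA and Adi libraries alone. They entered the main test through their reads in osteogenic cultures. ENSRNOG00000011381 had 0.215, 0.477 and 0.298 CPM in Adi_ASA, from 20 reads, and 0.105, 0 and 0.0971 CPM in Adi, from 4 reads (log2 fold change 2.16, SE 0.55, edgeR adjusted p = 0.0336). This call was lost under 6 of 11 alternatives, namely DESeq2, each version without 1 Adi library, and those without Adi_ASA replicate 2 or 3 (adjusted p of 0.0527 to 0.216 over these 6 fits, with edgeR except for DESeq2). ENSRNOG00000049695 had 0.536, 0.430 and 0.398 CPM in Adi_ASA, from 27 reads, and 0.105, 0 and 0.194 CPM in Adi, from 6 reads (log2 fold change 2.04, SE 0.44, edgeR adjusted p = 0.0132). The call was lost without Adi replicate 2 (edgeR adjusted p = 0.16) and without Adi_ASA replicate 1 (edgeR adjusted p = 0.0632). Its Adi_ASA values lay near those of Control, which were 0.351 to 0.459 CPM, and its osteogenic averages were 12.2 CPM in Ost_ASA and 14.5 CPM in Ost.

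Among the falls, ENSRNOG00000023338 had 3.11, 2.96 and 1.74 CPM in Adi_ASA and 4.56, 4.72 and 5.53 CPM in Adi (log2 fold change -0.98, SE 0.16, edgeR adjusted p = 0.00119). ENSRNOG00000009276 had 11.2, 10.2 and 8.40 CPM in Adi_ASA and 14.98, 12.2 and 16.9 CPM in Adi (log2 fold change -0.62, SE 0.12, edgeR adjusted p = 0.0047). Neither pair of groups overlapped, and both calls held under all 12 alternatives run. The Adi_ASA averages of 2.60 and 9.94 CPM were close to the Control averages of 2.41 and 8.86 CPM of the same genes.

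With aspirin, 6 genes of the set were called in both media. They made up 22.2% of the 27 called in osteogenic medium and 35.3% of the 17 called in adipogenic medium. Among all genes tested, 0.573% were called in both media, against 3.85% of the set, and these 89 genes were 15.8% of the genes called in osteogenic and 13.2% of those called in adipogenic medium. The genes of the set were singled out after their values had been seen. ENSRNOG00000011381 and ENSRNOG00000000281 rose in both, ENSRNOG00000005348 and ENSRNOG00000005809 fell in both, and the other 2 moved in opposite directions. ENSRNOG00000016752 had 396, 348 and 392 CPM in Ost_ASA and 231, 244 and 230 CPM in Ost (log2 fold change 0.71, SE 0.06, edgeR adjusted p = 3.58e-07). In the other medium it had 30.8, 31.0 and 29.1 CPM in Adi_ASA and 37.3, 40.5 and 38.3 CPM in Adi (log2 fold change -0.41, SE 0.06, edgeR adjusted p = 0.000656). ENSRNOG00000009565 went the other way, with 22.8, 23.6 and 21.9 CPM in Ost_ASA and 33.8, 32.8 and 33.4 CPM in Ost (log2 fold change -0.53, SE 0.11, edgeR adjusted p = 0.00748). It had 1.45, 1.81 and 2.09 CPM in Adi_ASA and 0.733, 0.726 and 0.437 CPM in Adi (log2 fold change 1.45, SE 0.19, edgeR adjusted p = 0.000131). For both genes the groups with and without aspirin did not overlap in either medium. The adipogenic call of ENSRNOG00000011381, from 20 reads in Adi_ASA and 4 in Adi, was lost under 6 of 11 alternatives. The calls of ENSRNOG00000000281 in osteogenic medium (log2 fold change 0.37, edgeR adjusted p = 0.0421), and of ENSRNOG00000005348 (-0.48, edgeR adjusted p = 0.0492) and ENSRNOG00000005809 (-0.27, edgeR adjusted p = 0.0356) in adipogenic medium were lost under 7, 9 and 7 of 12 alternatives. With the replicate number as a block their adjusted p-values from edgeR were 0.0766, 0.0639 and 0.0505. They were also lost without single libraries: the first without Ost replicate 1, 2 or 3 or Ost_ASA replicate 1 or 3, the next without Adi replicate 2 or 3 or Adi_ASA replicate 2 or 3, and the last without Adi replicate 1 or 3 or Adi_ASA replicate 1 or 2.

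**Figure D4:**
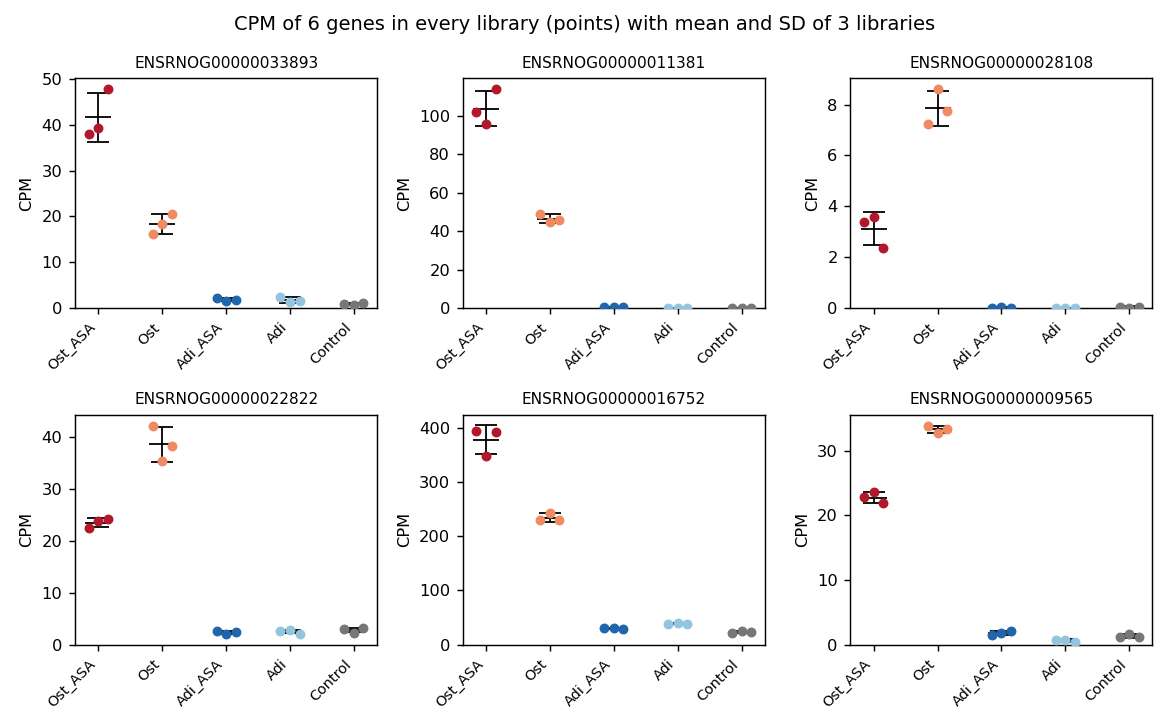
CPM of 6 genes in all 15 libraries (points), with the mean and SD of the 3 libraries of each group (bars). With aspirin in osteogenic medium, the top left, top middle and bottom middle genes were higher and the others lower, and no Ost_ASA library overlapped an Ost library.

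The aspirin effect itself was compared between the media, as the log2 fold change in adipogenic minus that in osteogenic medium. It differed for 18 of the 156 genes, more positive in adipogenic medium for 9 and more negative for 9 (edgeR adjusted p under 0.05), against 1.2% and 1.63% of all genes tested and 1.62% and 2.11% of those at 5 CPM or more in Ost. Of the 18, 6 had been called in osteogenic medium, 12 in adipogenic medium, 2 of these in both, and 2 had been called in neither. Here too, genes with few adipogenic reads could pass the filter on low counts through their osteogenic reads. The 2 opposite genes were among the 18: the difference was -1.12 (SE 0.09, edgeR adjusted p = 2.41e-07) for ENSRNOG00000016752 and 1.98 (SE 0.22, edgeR adjusted p = 2.66e-05) for ENSRNOG00000009565, and both passed under all 18 alternatives. Without Adi_ASA replicate 2, the count of more positive effects was 5.

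**Figure D5:**
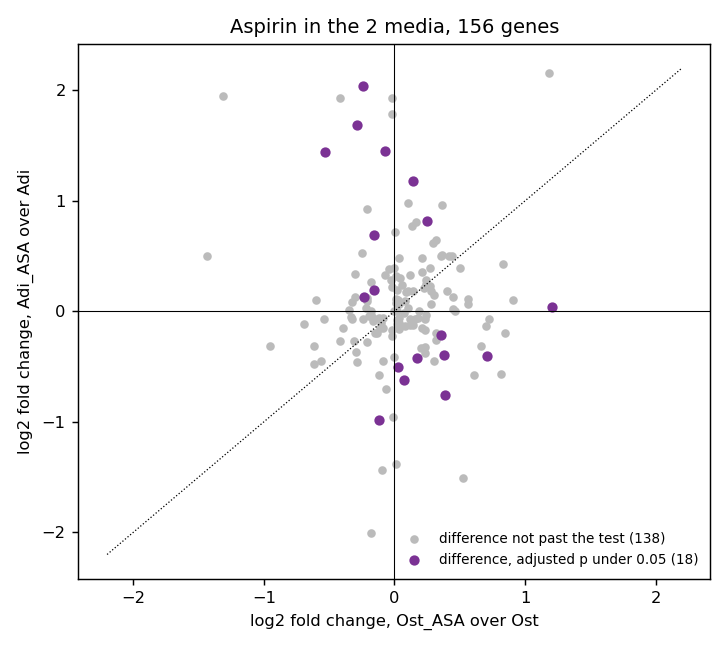
Log2 fold change with aspirin in adipogenic medium (vertical) against that in osteogenic medium (horizontal) for the 156 genes tested, with the dotted line marking equal effects. The 18 genes whose effects differed between the media are in purple, 9 on each side of the line.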

How the data were processed

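RNA sequencing of 15 libraries gave 1 table of read counts, which the authors deposited as unnormalised whole numbers per gene and library. The submitters' processing notes name HISAT2 2.0.4, HTSeq 0.9.1, DESeq 1.18.0 and the genome build Rnor_6.0. The sources used here give neither the roles of these tools nor the annotation release and strand setting, so genes that overlap or resemble others are uncertain. Column names matched sample titles, which gave the groups. Levels are CPM from column totals. Fold changes, their SE (size over the square root of F) and p-values came from edgeR 4.0.16 in R 4.3.3 (filterByExpr over 5 groups, TMM, robust quasi-likelihood fit without a block), which kept 15543 rows and was tested on simulated data. DESeq2 1.42.0, other scalings and filters, smaller sample sets, a replicate block and left-out libraries were alternatives. Replicate pairs all differed beyond sampling noise (chi-square divided by its degrees of freedom, 5.41 to 13.5), so none was merged. The genes and the lists were chosen with earlier results of these data known. For naming, at most the largest 2 rises and 2 falls per comparison, the 2 most abundant genes and genes singled out later were given by identifier. Lists by symbol, promoter motifs and marker checks were not run, since identifiers could not be paired.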

Additional observations from a re-analysis of the deposited data

Results flagged for a closer look

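For 18 of the 156 genes tested, the effect of aspirin differed between the media in a test of the difference itself (edgeR quasi-likelihood, adjusted p under 0.05). It was more positive in adipogenic medium for 9 and more negative for 9, against 1.2% and 1.63% of all genes tested. Taking the log2 fold change in adipogenic medium less that in osteogenic medium, the largest were 2.28 for ENSRNOG00000049695 (edgeR adjusted p = 0.00817) and 1.98 for both ENSRNOG00000018382 (edgeR adjusted p = 0.0103) and ENSRNOG00000009565 (edgeR adjusted p = 2.66e-05) in the positive direction. In the negative direction they were -1.17 for ENSRNOG00000033893 (edgeR adjusted p = 0.0233), -1.14 for ENSRNOG00000014549 (edgeR adjusted p = 0.047) and -1.12 for ENSRNOG00000016752 (edgeR adjusted p = 2.41e-07). The difference for ENSRNOG00000014549 was lost under 12 of 18 alternatives, with library totals and without any 1 of the 12 medium libraries except Adi replicate 1 (edgeR adjusted p up to 0.148). That for ENSRNOG00000033893 was lost under 5, without Adi replicate 1, Adi_ASA replicate 2 or 3, or Ost replicate 1 or 2 (edgeR adjusted p up to 0.0812). That for ENSRNOG00000018382 was lost without Adi replicate 1 or Adi_ASA replicate 2 (edgeR adjusted p = 0.0829 and 0.229), and that for ENSRNOG00000049695 without Adi replicate 2 (edgeR adjusted p = 0.0857). ENSRNOG00000018382 had 0.459 CPM in Adi_ASA, from 28 reads, and 0.134 CPM in Adi, from 8 reads, beside 27.9 CPM in Ost_ASA and 34.5 CPM in Ost. ENSRNOG00000049695 also had few reads, with 10, 9 and 8 in the Adi_ASA libraries and 2, 0 and 4 in the Adi libraries. It failed the filter on low counts in a fit of the Adi_ASA and Adi libraries alone. Its osteogenic reads brought it into the test of the difference. ENSRNOG00000014549 had averages of 16.9 CPM in Ost_ASA, 13.1 CPM in Ost, 0.884 CPM in Adi_ASA and 1.44 CPM in Adi, and aspirin passed the test in neither medium alone.

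The table also held 1597 rows without an Ensembl identifier, which carry names of another kind that the labels do not explain. Of these, 14 met the same conditions, with averages of 6.35 to 49.2 CPM in Ost_ASA and 5.14 to 35.6 CPM in Ost and at most 1.12 CPM in Control. Ost_ASA over Control was at least 8 for all 14, against 1.69% of all genes tested, but the Control libraries also chose these rows. All 14 were higher in Ost_ASA than in Adi_ASA (edgeR adjusted p under 0.05), against 32.8% of all genes tested. These rows, too, could pass the filter on low counts through their osteogenic reads. With aspirin in osteogenic medium 1 of the 14 passed the test, lower (log2 fold change -0.84), against 1.29% lower among all genes tested. This row, Novel01294, averaged 6.35 ± 0.663 CPM in Ost_ASA and 11.5 ± 0.944 CPM in Ost (SD, n = 3), and had no read in any other library.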

How the results depend on the processing

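The count of 157 genes was 155 to 164 when 1 library was left out, and 136 genes were in all 9 such versions. It was 157 with TMM-scaled CPM, 144 of them shared with the set. With an offset of 0.1 CPM it was 144, of which 121 were shared. With an offset of 1 CPM it was 141, of which 134 were shared. By construction it moved to 356 with a ratio of at least 4, to 79 with 16, and to 101 with Adi over Control between 0.67 and 1.5. For Ost_ASA over Adi_ASA, 155 or 156 genes passed under all alternatives run and none was lower. For Ost_ASA versus Ost, 15 to 19 rose and 6 to 9 fell without 1 library, DESeq2 gave 30 and 16, and a fit of these 6 libraries alone gave 14 falls. For Adi_ASA versus Adi, 6 to 10 rose and 4 to 9 fell without 1 library, and 17 rose with library totals. For the difference between media, 5 to 9 effects were more positive and 6 to 9 more negative in adipogenic medium without 1 library, and 8 to 12 and 8 to 11 under the other alternatives. The cause of these changes was not tested. Shares of all genes were taken only in the main fit, so the counts under alternatives have no background beside them. The log2 fold change of ENSRNOG00000058039 in osteogenic medium, -0.004, did not pass the test and changed sign in 4 of 12 alternatives (0.00086 with a replicate block, and -0.068 to 0.055 without 1 library, where it was 0.023 without Ost replicate 1 and 0.015 without Ost replicate 3). Of 370 single-gene values under alternatives, 314 kept call and direction, 51 lost the call, 1 gained it and 4 changed sign.

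Replicate numbers showed no strong pairing of the libraries (correlation of deviations -0.15 to 0.12 over 30 pairs of the same number, and 2 of 15 libraries correlated best with their own number). A weak pairing, or one limited to some genes, could be missed by this check. With the replicate block, 156 genes were higher in Ost_ASA than in Adi_ASA, 20 rose and 9 fell in Ost_ASA versus Ost, 10 rose and 5 fell in Adi_ASA versus Adi, and 8 and 9 differed between media. Genes with few reads in adipogenic cultures limit the precision of the changes there.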
